A study of Mus musculus with 19 samples.

Results

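The Munc13 proteins are large presynaptic and secretory proteins that prepare vesicles for fusion. Their MUN domain opens the SNARE protein syntaxin, which lets vesicles become ready for release, and calcium, diacylglycerol and calmodulin tune this step. Unc13a (Munc13-1) is the main member at most central glutamatergic synapses, Unc13b (Munc13-2) acts beside it and has isoforms that differ in their N terminus, Unc13c (Munc13-3) is best known from cerebellar granule cells, and Unc13d (Munc13-4) serves granule release in blood and other secretory cells. Vomeronasal sensory neurons (VSNs) are glutamatergic and send their axons to the accessory olfactory bulb.

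The members are the 4 genes that carry these names, Unc13a, Unc13b, Unc13c and Unc13d, of 35596 genes in the quantified transcriptome, and they were chosen by name. Together they have 35 annotated transcripts of 116248 in each library. All 4 genes passed the filter on low counts in every comparison.

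PolyA RNA of the whole vomeronasal organ (VNO) of mice at postnatal day 21 was sequenced in single reads of 75 bases. In the AP-2ε line, 3 libraries came from AP-2εCre +/- / Smad4 flox/flox conditional knockouts (AP-2εCre cKO), 3 from Cre heterozygotes whose label names no floxed Smad4 (AP-2εCre +/-), and 3 from Cre-negative animals. The OMP line had the same design with OMPCre, again with 3 libraries in each group. The genotype label calls the Cre-negative animals wild type, whereas the design text of the series and the study's methods name them Smad4 flox/flox, and they are called so here. Smad4 is the shared SMAD of BMP and TGF-β signalling. The AP-2ε gene drives Cre in immature basal VSNs and Omp drives it in mature apical and basal VSNs. Cell types in which the host gene of Cre is not active should keep Smad4. Whether Smad4 was also lost in main olfactory neurons was not tested. The labels call the libraries biological replicates. The number of animals per library is not given in the sources used here, and p-values measure the spread between these libraries.

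The libraries held 43385516 to 134042284 estimated counts, and AP-2εCre cKO replicate 2 was the deepest. Markers of VSNs summed to between 944 and 1195 counts-per-million (CPM, scaled to the normalised library size) in all 18 libraries, and markers of endothelium, glia, ciliated, sustentacular and immune cells were also counted, as in a whole organ. Smad4 lay between 54.4 and 62.4 CPM in the OMPCre cKO and between 64.6 and 83.8 CPM in the 6 OMP line controls. In the AP-2ε line it lay between 33.8 and 66.5 CPM in the cKO and overlapped the 39.6 to 81.0 CPM of the controls. By in situ hybridisation in younger animals, the study saw the floxed Smad4 exon lost in most Cre-positive cells of AP-2εCre cKO. The values here count the whole gene, so the loss of that exon was not measured. In bulk RNA, fewer cells of a type and less RNA per cell cannot be told apart.

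Unc13c is the member on which the results turn, and its 2 transcripts differ only outside the coding sequence. Unc13c (ENSMUSG00000062151.13) lies on the minus strand of GRCm38 at chr9:73479422-73968966. Unc13c-202 has 8796 bases, with 715 bases of 5′ UTR, 6630 coding bases and 1451 bases that hold the stop codon and the 3′ UTR. Unc13c-201 has 6633 bases and the same 32 coding exons, and its whole sequence is contained in Unc13c-202. The first bases of both transcripts show this: Unc13c-201 begins at the start codon, given in capitals, and Unc13c-202 has further bases before it, of which the last 30 are printed.
Unc13c-202: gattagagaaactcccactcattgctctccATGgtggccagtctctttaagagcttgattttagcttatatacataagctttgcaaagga
Unc13c-201: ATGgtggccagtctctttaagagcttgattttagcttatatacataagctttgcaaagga

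Stretches of 31 bases, by which salmon recognises a transcript, were compared among the 35 Munc13 transcripts only. Among these, none was particular to Unc13c-201 and 2163, or 24.7%, were particular to Unc13c-202. The split of reads between both therefore rests on the UTRs of Unc13c-202. No 31-base stretch of Unc13c or Unc13d occurred in another member, and Unc13a and Unc13b shared 2, so few reads could be shared between members.

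The other members lie on 3 further chromosomes. Unc13a (ENSMUSG00000034799.16) is on the minus strand at chr8:71624417-71671757, Unc13b (ENSMUSG00000028456.18) on the plus strand at chr4:43058953-43264871, and Unc13d (ENSMUSG00000057948.12) on the minus strand at chr11:116062095-116077961. The 3′ end of Unc13a overlaps Colgalt1, a collagen galactosyltransferase gene on the opposite strand with 1594 to 7414 counts. The library kit keeps strand, but the strand setting of the quantification is not given in the sources used here.

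Smad proteins bind the short motif CAGAC, or GTCTG on the other strand, and the 250 bases before the start of each gene are shown with the matches in capitals. The sequences are from RefSeq on GRCm38.p6, whose table held 3 of the 4 members. They run 5′ to 3′ on the strand of the gene. The windows are chr8:71671758-71672007 for Unc13a, chr4:43058703-43058952 for Unc13b and chr9:73969038-73969287 for Unc13c.
Unc13a: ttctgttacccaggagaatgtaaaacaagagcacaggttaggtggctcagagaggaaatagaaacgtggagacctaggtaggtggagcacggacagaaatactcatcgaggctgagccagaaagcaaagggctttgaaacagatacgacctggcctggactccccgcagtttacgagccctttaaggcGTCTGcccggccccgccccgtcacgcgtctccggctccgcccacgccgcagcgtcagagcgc
Unc13b: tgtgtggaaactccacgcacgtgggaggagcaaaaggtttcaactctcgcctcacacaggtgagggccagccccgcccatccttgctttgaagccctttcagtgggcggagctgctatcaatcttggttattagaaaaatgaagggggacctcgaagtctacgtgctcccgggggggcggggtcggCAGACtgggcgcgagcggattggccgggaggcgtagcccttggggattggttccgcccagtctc
Unc13c: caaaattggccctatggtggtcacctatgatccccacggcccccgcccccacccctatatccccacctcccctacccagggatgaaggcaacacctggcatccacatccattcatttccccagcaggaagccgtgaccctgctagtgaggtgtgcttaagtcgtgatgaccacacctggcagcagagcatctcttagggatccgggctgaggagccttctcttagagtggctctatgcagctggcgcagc

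Unc13a and Unc13b held 1 match each and Unc13c none, while 13861 of 32851 RefSeq promoter windows of this length (42.2%) held at least 1. The RefSeq start of Unc13c lies 71 bases upstream of that of Unc13c-202. A match is a description of the letters, and its absence says nothing about binding elsewhere.

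The first question was whether Smad4 ablation in immature basal VSNs went with a change in the Munc13 genes. Unc13c was 3.35-fold higher in AP-2εCre cKO than in the 6 controls of its line, and the other 3 members stayed within 1.18-fold, all by mean CPM. The 3 AP-2εCre cKO libraries had 746, 1269 and 833 counts of Unc13c, or 11.5, 9.06 and 12.2 CPM. The Smad4 flox/flox libraries had 93, 123 and 123 counts, or 2.42, 2.73 and 2.66 CPM, and the AP-2εCre +/- libraries had 285, 282 and 171 counts, or 4.39, 4.35 and 3.02 CPM. Every cKO library lay above every control, and the lowest cKO value was 9.06 CPM against a highest control value of 4.39 CPM.

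The log2 fold change of Unc13c was 1.74 (SE 0.22, 95% interval 1.27 to 2.22) and edgeR (quasi-likelihood test, Benjamini-Hochberg over 18495 genes) put its adjusted p at 0.0353. Its rank by p was 3, and 7 genes (0.0378%) passed that threshold. DESeq2 gave 1.73 with an adjusted p of 3.30e-10, where 316 of 20554 genes (1.54%) passed. An exact two-sided permutation test of the CPM of 3 against 6 libraries gave p = 0.024, the smallest value that it can give for such groups. Among all genes tested, 409 (2.21%) were higher in every AP-2εCre cKO library than in every control.

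This call was lost in 7 of the 9 fits that left out 1 library. Without Smad4 flox/flox replicate 2 or 3, AP-2εCre +/- replicate 2 or 3, or AP-2εCre cKO replicate 1, 2 or 3, the adjusted p by edgeR was 0.0826, 0.0947, 0.0525, 0.105, 0.171, 0.0560 and 0.249 in that order, while the log2 fold change stayed between 1.66 and 1.86 over all 9 omissions. With AP-2εCre +/- alone as controls it was 1.48 (adjusted p = 0.119 by edgeR), and with Smad4 flox/flox alone 2.06 (adjusted p = 0.0109).

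**Figure D1:**
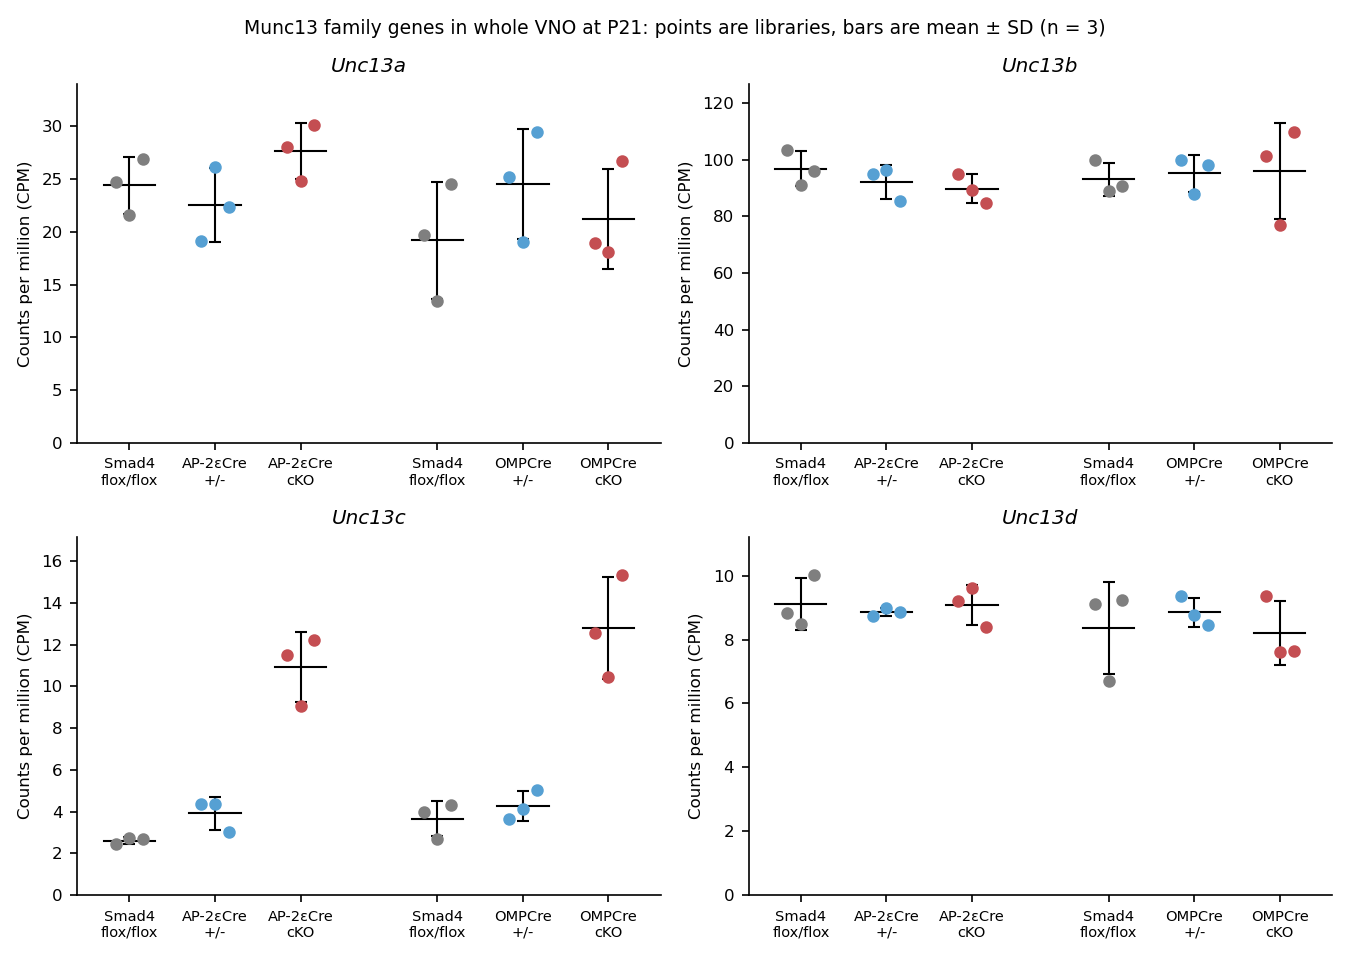
Counts-per-million (CPM, vertical axes from 0) of Unc13a, Unc13b, Unc13c and Unc13d in the 6 groups. Points are libraries and bars are mean ± SD (n = 3). Unc13c lay between 9.06 and 15.3 CPM in the 6 cKO libraries and between 2.42 and 5.04 CPM in the 12 controls, while the groups of the other genes overlapped.

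Unc13c was also higher after ablation in mature apical and basal VSNs, by 3.22-fold in the edgeR fit. In the OMPCre cKO libraries Unc13c had 808, 650 and 838 counts, or 12.6, 10.5 and 15.3 CPM. The Smad4 flox/flox libraries of this line had 262, 192 and 234 counts, or 3.98, 2.69 and 4.32 CPM, and the OMPCre +/- libraries had 232, 247 and 345 counts, or 3.63, 4.10 and 5.04 CPM. The groups did not overlap here either, with a lowest cKO value of 10.5 CPM and a highest control value of 5.04 CPM.

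The log2 fold change in the OMP line was 1.69 (SE 0.19, 95% interval 1.27 to 2.11). The adjusted p was 0.0503 by edgeR over 18623 genes, just above the threshold, with an unadjusted p of 5.40e-06 that ranked second. No gene (0%) passed the adjusted threshold in this comparison, 735 (3.95%) had an unadjusted p under 0.05, and DESeq2 called 46 of 19264 genes (0.239%). By DESeq2, Unc13c had a log2 fold change of 1.69 with an adjusted p of 1.46e-11. The exact permutation test of CPM gave p = 0.024, and 262 genes (1.41%) were higher in every OMPCre cKO library than in every control of the line. Leaving out Smad4 flox/flox replicate 2 gave an adjusted p of 0.0408 by edgeR, and the other 8 omissions kept it between 0.0574 and 0.513, with log2 fold changes of 1.54 to 1.82 over all 9.

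Of 18137 genes tested in both lines, 32 (0.176%) were higher in every cKO library than in every control of their own line, and Unc13c was among them. The lines share no libraries. Ordered by the smaller of their 2 log2 fold changes, Unc13c had rank 3 among these 32 genes. The difference between the effects, tested as an interaction over the 18 libraries, was −0.05 for Unc13c (OMPCre minus AP-2εCre, log2, SE 0.31, 95% interval −0.69 to 0.59, adjusted p = 1.00 by edgeR). No gene (0%) passed an adjusted p of 0.05 in that test by edgeR, 956 (4.91%) had an unadjusted p under 0.05, and DESeq2 called 20 of 21447 (0.0933%), none of them a member. As a ratio of the 2 folds, the interval ran from 0.618 to 1.51.

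The names of the libraries came in 2 styles, whose meaning is not given in the sources used here, with 2 libraries per group in the first style and 1 in the second. Within the first style Unc13c was 3.06-fold higher in AP-2εCre cKO and 3.20-fold higher in OMPCre cKO than in the controls of the line. Within the second style the ratios were 4.06 and 3.28. The cKO libraries lay above the controls in each of these 4 sets. With the style as a covariate the adjusted p by edgeR was 0.0717 in the AP-2ε line, where the call was thus lost, and 0.0234 in the OMP line. With the first style alone it was 0.471 and 0.463.

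The summed levels of cell marker lists are given beside this result. Blood and immune markers (8 of 8 found, Gzmb at 0 in some libraries) summed to 182 to 189 CPM in AP-2εCre cKO and 138 to 173 CPM in its controls, but to 145 to 152 CPM in OMPCre cKO and 132 to 189 CPM in its controls. The groups of this list were separate in the AP-2ε line and overlapped in the OMP line. Progenitor markers (5 of 5) summed to 171 to 200 CPM in AP-2εCre cKO and 95.6 to 181 CPM in its controls, and to 77.8 to 115 CPM in OMPCre cKO and 109 to 169 CPM in its controls. Markers of ciliated cells (4 of 4) summed to 278 to 402 CPM in AP-2εCre cKO against 414 to 548 CPM in its controls, and to 311 to 472 CPM in OMPCre cKO against 233 to 488 CPM. Ciliated markers were thus lower in every AP-2εCre cKO library than in its controls. VSN markers (7 of 7) summed to 1106 to 1168 CPM in AP-2εCre cKO against 944 to 1195 CPM, and to 1154 to 1180 CPM in OMPCre cKO against 1005 to 1154 CPM. Markers of ensheathing and Schwann glia (5 of 5) summed to 77.6 to 130 CPM, of immature neurons (5 of 5) to 608 to 1083 CPM, of main olfactory neurons (4 of 4) to 102 to 246 CPM, of sustentacular cells and glands (4 of 4) to 726 to 2577 CPM and of endothelium (4 of 4) to 154 to 1444 CPM over the 18 libraries. The main olfactory markers separated the OMP line controls, since all OMPCre +/- libraries, the highest at 246 CPM, lay above the 102 to 137 CPM of Smad4 flox/flox and the 105 to 145 CPM of OMPCre cKO. At an unadjusted p under 0.05 by edgeR, which 10.2% of all genes had in the AP-2ε line, 3 of 8 blood and immune, 2 of 5 progenitor, 1 of 5 immature neuron, 1 of 4 main olfactory and 1 of 7 VSN markers were higher in AP-2εCre cKO. Lower there were 2 of 4 ciliated, 1 of 5 glial, 1 of 4 sustentacular and gland and 1 of 7 VSN markers. Against 3.95% of all genes in the OMP line, 4 of 7 VSN markers were higher in OMPCre cKO, and 2 of 5 progenitor, 1 of 5 glial and 1 of 7 tested blood and immune markers were lower. The part of these lists in the Unc13c result was not tested.

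The second question was whether a relative of Unc13c moved against it. On the scale of counts, Unc13a, Unc13b and Unc13d had adjusted p-values of 0.536 or more in the AP-2ε line and 1.00 in the OMP line by edgeR, and their groups overlapped in CPM in both lines. On the scale of TPM, which weighs transcripts by length, Unc13a was lower in OMPCre cKO than in its controls by exact permutation (p = 0.048), as described with its transcripts. In the AP-2ε line its TPM lay the other way, at a mean of 8.45 TPM in the cKO and 5.43 TPM in the controls, with overlap (exact permutation p = 0.095). A missed threshold does not show equal levels, so the intervals are given for each gene.

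Unc13a, the member that most central synapses need, had 24.7, 21.6 and 26.9 CPM in Smad4 flox/flox of the AP-2ε line, 19.1, 26.1 and 22.3 CPM in AP-2εCre +/-, and 28.1, 24.8 and 30.1 CPM in AP-2εCre cKO. The cKO values lay at the upper end, and 1 of them fell among the controls. The log2 fold change was 0.24 (SE 0.12, 95% interval −0.02 to 0.50, unadjusted p = 0.0682 by edgeR), where 1892 genes (10.2%) had an unadjusted p under 0.05.

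Unc13a in the OMP line had 19.7, 13.4 and 24.5 CPM in Smad4 flox/flox, 25.2, 19.1 and 29.5 CPM in OMPCre +/-, and 18.9, 18.1 and 26.7 CPM in OMPCre cKO. The cKO values lay within the range of the controls, and the log2 fold change was −0.05 (SE 0.23, 95% interval −0.55 to 0.46). The difference of the effects between the lines was −0.28 (95% interval −0.85 to 0.29, adjusted p = 1.00 by edgeR). Over 4 alternative settings it was −1.55 to −0.27.

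Unc13b had the highest counts of the family. It lay between 85.3 and 103 CPM in the 6 AP-2ε line controls and at 95.1, 89.5 and 84.9 CPM in AP-2εCre cKO, with a log2 fold change of −0.07 (SE 0.08, 95% interval −0.24 to 0.10). The OMP line values lay between 87.8 and 99.9 CPM in the controls and at 101, 76.9 and 110 CPM in OMPCre cKO, with a log2 fold change of 0.03 (SE 0.11, 95% interval −0.22 to 0.27). The 3 OMPCre cKO libraries thus spread on both sides of their controls.

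Unc13d, the member of granule-releasing cells, lay between 8.48 and 10.0 CPM in the 6 controls and at 9.23, 9.62 and 8.41 CPM in AP-2εCre cKO, which gave a log2 value of 0.02 (SE 0.10, 95% interval −0.20 to 0.24). It lay between 6.72 and 9.35 CPM in the OMP line controls and at 9.36, 7.60 and 7.63 CPM in OMPCre cKO, and the log2 value there was −0.07 (SE 0.14, 95% interval −0.38 to 0.23). For Unc13b and Unc13d the 95% intervals of the fold in both lines lay between 0.771 and 1.20, against 2.40 to 4.66 for Unc13c.

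**Figure D2:**
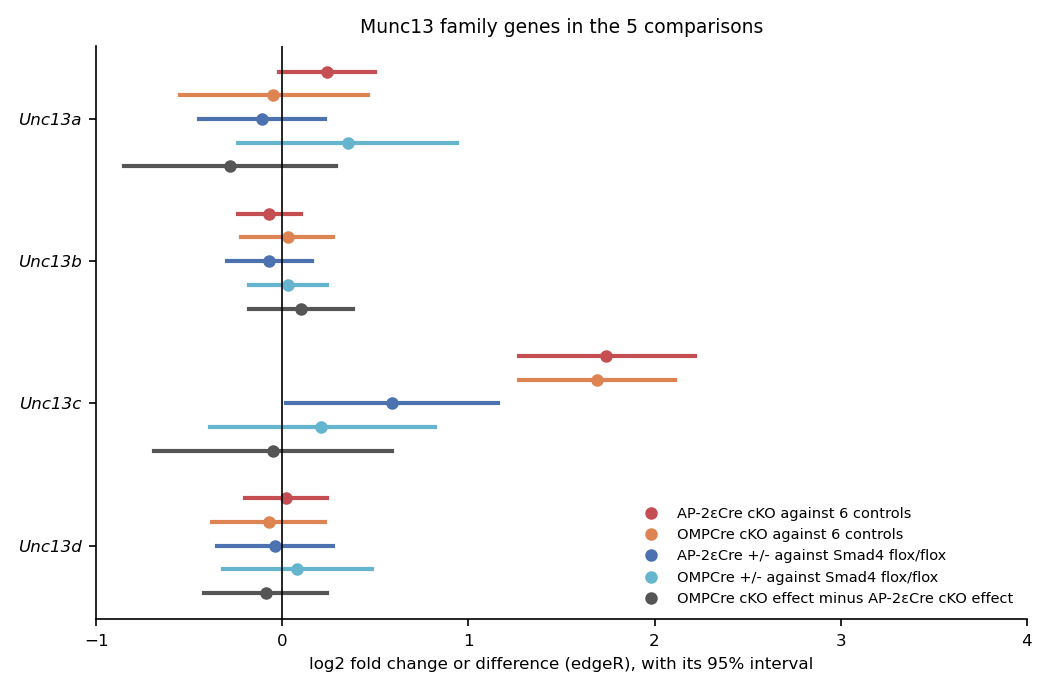
Log2 fold changes by edgeR (points) with 95% intervals (lines) of the 4 genes in the 5 comparisons, on a log2 axis where 0 is no difference. The intervals of Unc13c in both cKO comparisons run from 1.27 upward, and the interval of each other gene in those comparisons includes 0.

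The Cre heterozygotes were compared with Smad4 flox/flox to see whether the Munc13 genes differed between the 2 kinds of control. Tfap2e, the gene that hosts Cre in the AP-2ε line, lay between 14.0 and 16.6 CPM in Smad4 flox/flox, between 5.43 and 8.88 CPM in AP-2εCre +/- and between 10.0 and 12.5 CPM in AP-2εCre cKO, and Omp lay between 305 and 473 CPM in Smad4 flox/flox and between 225 and 287 CPM in the OMPCre carriers. In the edgeR fit Unc13c was 1.51-fold higher in AP-2εCre +/- than in Smad4 flox/flox (log2 0.59, SE 0.24, 95% interval 0.02 to 1.16). Its unadjusted p was 0.0431 and its adjusted p 0.937 by edgeR, where 924 of 17827 genes (5.18%) had an unadjusted p under 0.05 and 4 (0.0224%) an adjusted one. The 3 AP-2εCre +/- libraries lay above the 3 Smad4 flox/flox libraries, as they did for 863 genes (4.84%). The exact permutation test gave p = 0.1, the smallest that 3 against 3 libraries allow.

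The same comparison in the OMP line gave Unc13c a log2 fold change of 0.21 (SE 0.25, 95% interval −0.39 to 0.82), and the groups overlapped. No member had an adjusted p under 0.05 there by edgeR (0.925 to 0.991), nor an unadjusted one, where 8 genes (0.0441%) and 1004 genes (5.54%) did. Unc13a had the largest value of the other members in these comparisons, 0.35 (SE 0.25, 95% interval −0.24 to 0.94) in OMPCre +/-. The remaining 5 values of Unc13a, Unc13b and Unc13d lay between −0.11 and 0.08.

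The third question was how the 4 genes compare in level. Levels between genes are given in transcripts-per-million (TPM), which accounts for length and was summed over the transcripts of a gene. Unc13b was highest in the 12 controls with 20.8 ± 4.43 TPM (SD, range 15.3 to 28.5), followed by Unc13a with 5.87 ± 2.07 TPM (range 2.85 to 8.95), Unc13d with 5.26 ± 0.993 TPM (range 3.89 to 6.83) and Unc13c with 0.373 ± 0.141 TPM (range 0.197 to 0.702). Unc13b exceeded Unc13a in 12 of 12 libraries, by 1.89 ± 0.54 on the log2 scale. Unc13a and Unc13d did not differ beyond their spread (0.09 ± 0.49, higher in 7 of 12 libraries), and Unc13d exceeded Unc13c in 12 of 12 libraries, by 3.84 ± 0.40.

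These log2 ratios were tested by exact sign-flip permutation on both sides. With 0.01 TPM added to each level, the exact permutation p was 0.00049 for the first and the last pair, which is the smallest 12 libraries can give, and 0.52 for Unc13a and Unc13d. Adjusted over the 3 pairs these were 0.00073 and 0.52. In the 6 cKO libraries Unc13c reached 1.33 ± 0.374 TPM (range 0.982 to 1.87) and by summed TPM was the lowest member in each of them. The log2 ratio of Unc13d to Unc13c there was 2.05 ± 0.36. The distance to Unc13d depends on how length is counted: with CPM per kilobase of the longest transcript, the ratio in the controls was 2.41 for Unc13d to Unc13c, 1.55 for Unc13b to Unc13a and 0.00 for Unc13a to Unc13d. The summed TPM of Unc13a and Unc13b also holds short transcripts. In the 12 controls Unc13b-201 alone had 8.79 to 14.6 TPM, and Unc13a-201 alone had 0.753 to 2.27 TPM. Much of the Unc13d TPM came from the short non-coding Unc13d-205, with 2.90 to 5.33 TPM in the 6 cKO libraries. Without it the order did not hold in each library: Unc13d-202, the one coding Unc13d transcript counted there, had 1.23 TPM in AP-2εCre cKO replicate 3 against 1.42 TPM of Unc13c, and 1.25 TPM in OMPCre cKO replicate 3 against 1.87 TPM of Unc13c.

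**Figure D3:**
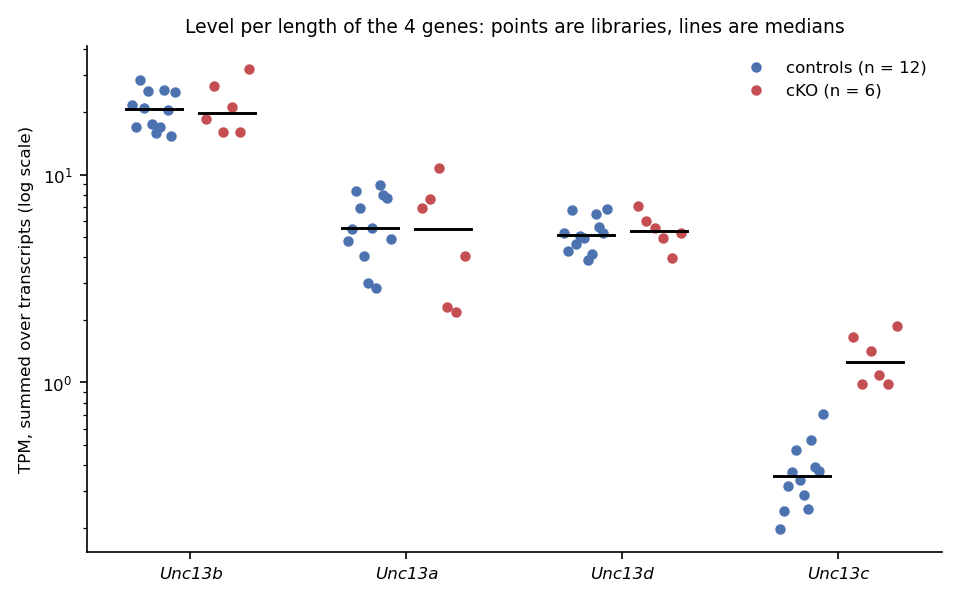
TPM summed over transcripts, on a log axis, in the 12 controls and the 6 cKO libraries of both lines. Points are libraries and lines are medians. Unc13c lay between 0.197 and 0.702 TPM in the controls and between 0.982 and 1.87 TPM in the cKO libraries, below the lowest library of each other gene.

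As a share of the TPM of all 4 genes, Unc13c took 0.617% to 1.35% in the AP-2ε line controls and 2.37% to 4.81% in AP-2εCre cKO. It took 1.02% to 1.88% in the OMP line controls and 3.69% to 4.29% in OMPCre cKO. The summed TPM of the 4 genes lay between 33.7 and 41.4 in AP-2εCre cKO and between 25.8 and 43.9 in its controls, and between 23.1 and 43.5 in OMPCre cKO and between 24.2 and 41.5 in its controls. The total of the family thus overlapped between cKO and controls in both lines.

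The fourth question was which transcripts of Unc13c were higher in the cKO. Unc13c-201 was at 0 in 8 of the 18 libraries, and Unc13c-202 was counted in all of them. Its CPM was 8.78, 6.50 and 9.55 in the AP-2εCre cKO libraries, where the 6 controls lay between 1.75 and 4.39 CPM. It was 12.6, 8.34 and 13.1 in the OMPCre cKO libraries, where the controls lay between 1.34 and 4.32 CPM. The groups did not overlap in either line.

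The log2 fold change of Unc13c-202 was 1.60 in AP-2εCre cKO (SE 0.32, 95% interval 0.87 to 2.32, unadjusted p = 0.000758) and 1.75 in OMPCre cKO (SE 0.36, 95% interval 0.94 to 2.57, unadjusted p = 0.000903). Adjusted over all transcripts by edgeR these were 0.705 of 58945 and 1.00 of 59429. For the AP-2ε line 0 transcripts (0%) passed the adjusted threshold and 2853 (4.84%) an unadjusted p of 0.05, and in the OMP line 2 (0.00337%) and 1501 (2.53%) did. DESeq2 gave Unc13c-202 adjusted p-values of 0.000329 and 0.000577, where it called 1048 of 67058 (1.56%) and 831 of 66043 transcripts (1.26%). Transcripts without overlap that were higher in the cKO numbered 784 (1.33%) in the AP-2ε line and 563 (0.947%) in the OMP line.

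Unc13c-201 had 2.75, 2.56 and 2.67 CPM in AP-2εCre cKO and 0 to 1.27 CPM in the controls, where it was at 0 in Smad4 flox/flox replicates 1 and 2 and AP-2εCre +/- replicate 1. In OMPCre cKO it had 0, 2.13 and 2.20 CPM, against 0 to 2.28 CPM in the controls, so the groups did not overlap in the AP-2ε line and did in the OMP line. Its log2 fold changes were 2.34 (SE 1.68) and 1.20 (SE 2.39), with unadjusted p-values of 0.198 and 0.628 by edgeR. The second value moved to 2.26 without OMPCre +/- replicate 1 and to 0.78 without OMPCre cKO replicate 3. Of the difference in mean CPM between cKO and controls, Unc13c-202 carried 72.2% in the AP-2ε line and 90.8% in the OMP line.

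The share of Unc13c counts assigned to Unc13c-202 was 75.4% ± 3.28 (SD, n = 3) in AP-2εCre cKO, which differed from the mean of its 6 controls (SD 18.3) by −8.67 points, and exact permutation gave p = 0.43 (0.86 adjusted over both lines). For the OMP line it was 88.4% ± 10.5 (n = 3) in the cKO and 84.6% ± 26.0 (n = 6) in the controls, with an exact permutation p of 1 (adjusted 1). The controls ranged from 58.1% to 100% and from 37.3% to 100%. No shift of the split was thus detectable, and the split was wide among the controls. Since both transcripts encode the same 6630 coding bases, the sum over both is the measure of Unc13c coding RNA.

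**Figure D4:**
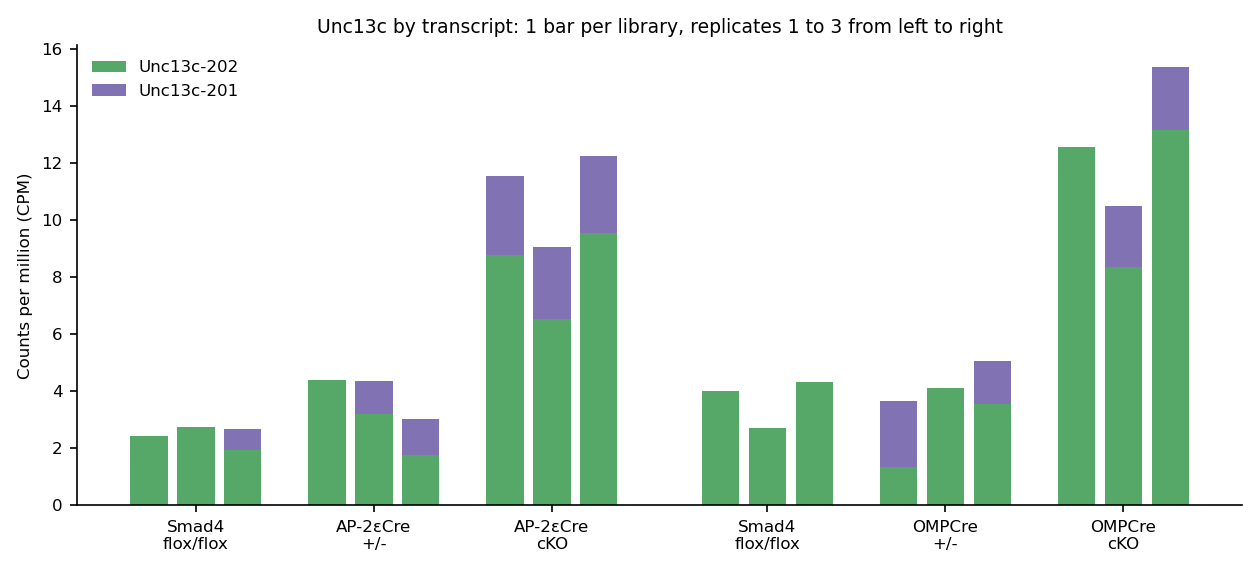
CPM of Unc13c by library, stacked by transcript, with Unc13c-202 below and Unc13c-201 above. Replicates 1 to 3 of each group stand from left to right. Unc13c-202 lay between 6.50 and 13.1 CPM in the 6 cKO libraries, and Unc13c-201 was at 0 in 8 of the 18 libraries.

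The transcripts of the other members were described in the same way. Of the 35 transcripts, 25 had a mean of at least 10 counts, and 24 entered the test in the AP-2ε line and 23 in the OMP line. Unc13a was mostly Unc13a-201 (53.2% to 81.4% of its counts) and Unc13a-208 (8.73% to 39.4%), with 5136 and 5193 coding bases. Unc13a-208 had 9.21, 9.77 and 7.69 CPM in AP-2εCre cKO against 1.68 to 7.98 CPM in its controls (log2 0.72, SE 0.42, unadjusted p = 0.118 by edgeR). It had 4.52, 5.14 and 8.07 CPM in OMPCre cKO and 2.57 to 7.54 CPM in the controls (log2 0.45, SE 0.35). Unc13a-201 gave 0.04 (SE 0.15) and −0.13 (SE 0.26).

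Unc13b was 78.2% to 88.6% Unc13b-201, a transcript with 4770 coding bases, and its log2 fold changes were 0.00 (SE 0.09) in the AP-2ε line and 0.02 (SE 0.10) in the OMP line. Unc13b-212 took 2.32% to 7.89% and Unc13b-215, the longest with 13170 coding bases and an exon of 8367 bases, took 1.04% to 4.91%. Unc13b-216, with 5946 coding bases, took at most 1.51%. Unc13b-201 was thus the main transcript in every library.

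Unc13d-205, a transcript of 991 bases without a coding sequence, took 35.3% to 53.4% of the Unc13d counts. Its log2 fold changes were 0.00 (SE 0.25) and −0.22 (SE 0.25). Unc13d-202 and Unc13d-203 have 3255 coding bases each. Unc13d-202 was at 0 in 9 libraries and Unc13d-203 in 7, both were above 0 in 2, and no library had both at 0. No fold change is given for either because of these libraries at 0. Among the Munc13 transcripts, only 2.22% and 0% of their 31-base stretches were particular to them. The same limit holds for Unc13a-208 (1.51%) and Unc13b-201 (0%), whose fold changes are given above.

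**Figure D5:**
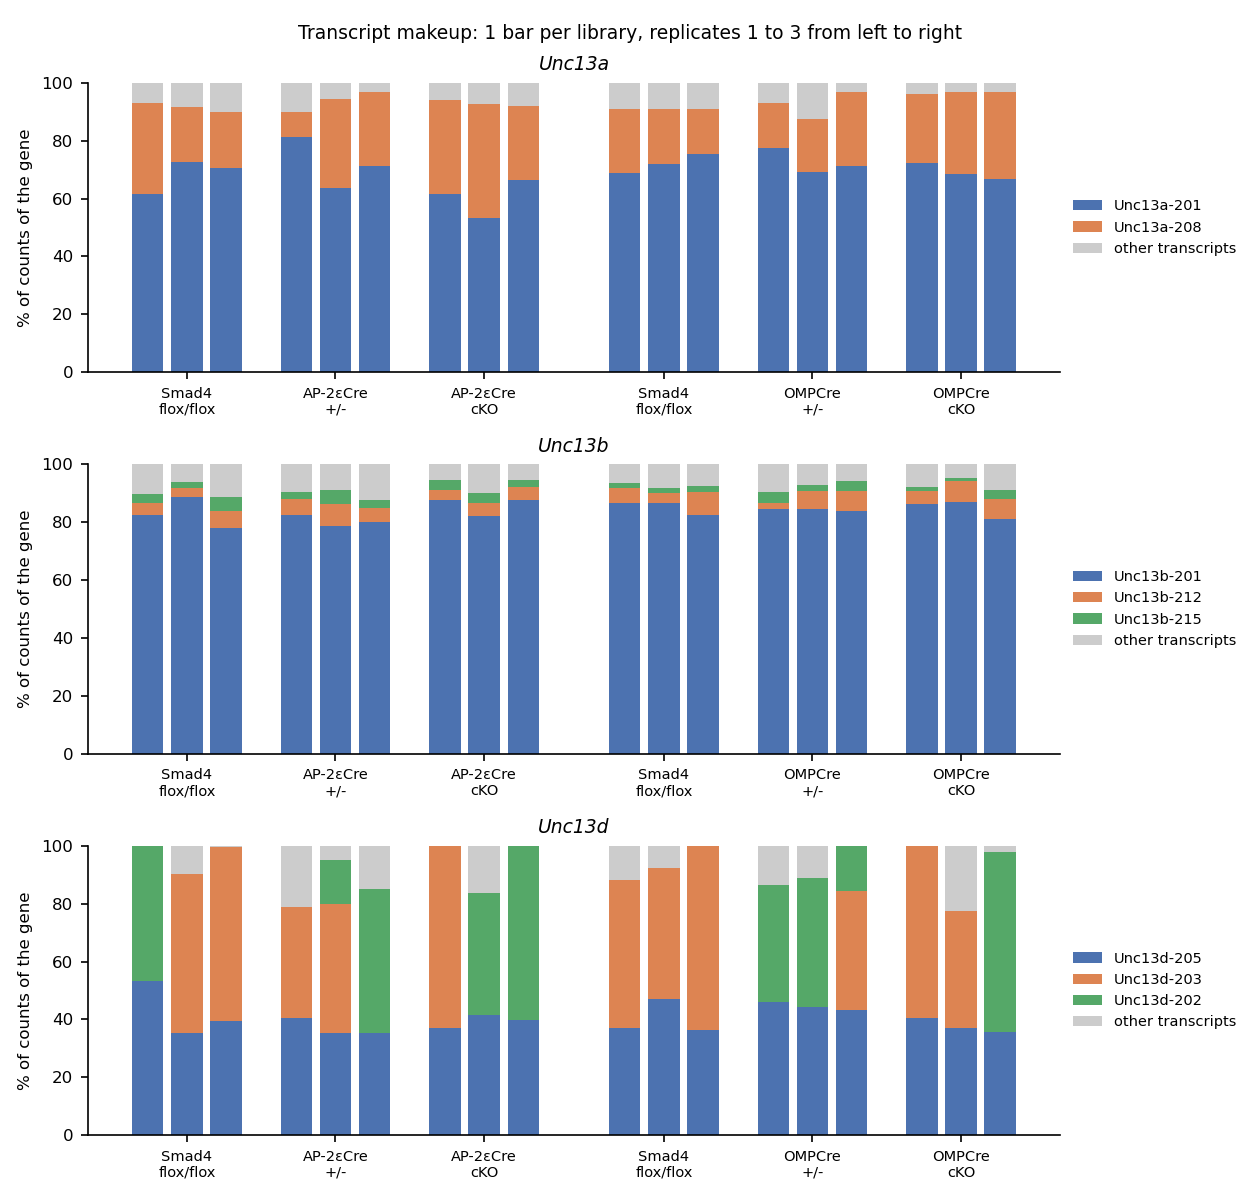
Share of the counts of Unc13a, Unc13b and Unc13d that salmon assigned to their main transcripts (percent, 1 bar per library, replicates 1 to 3 from left to right). Unc13b-201 holds 78.2% to 88.6% in all 18 libraries, and Unc13d changes between Unc13d-202 and Unc13d-203 from library to library.

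Of the 24 and 23 Munc13 transcripts tested, 1 in the AP-2ε line and 2 in the OMP line had an unadjusted p under 0.05 by edgeR, where 4.84% and 2.53% of all transcripts did. The count in the AP-2ε line lay below that share. Unc13c-202 was that transcript in both lines, and the other was Unc13a-203, a nonsense-mediated decay transcript of 390 bases with an unadjusted p of 0.0262. Unc13a-203 and Unc13a-204, of 721 bases, were at 0 in all 3 OMPCre cKO libraries and reached 0.970 and 0.960 CPM in the controls, some of which were also at 0. Short transcripts weigh more in a sum of TPM than in a sum of counts. Unc13a summed to 2.30, 2.19 and 4.07 TPM in OMPCre cKO and to 2.85 to 8.95 TPM in the controls, and counts rebuilt from TPM gave Unc13a a log2 fold change of −1.16 (adjusted p = 1.00 by edgeR) in place of −0.05. As a share of the summed TPM of the 4 genes, Unc13a took 7.79% to 9.48% in OMPCre cKO and 11.8% to 26.8% in the controls, without overlap. Exact permutation gave p = 0.048 for its TPM and p = 0.024 for this share, each 1 of 8 such tests over 4 genes and 2 lines and not adjusted. The share of Unc13b was 69.1% to 74.3% in OMPCre cKO and 53.6% to 70.0% in the controls (exact permutation p = 0.048, with overlap). Shares of 1 total are not independent of each other, and a share of 4 genes has no counterpart over all genes. In TPM, Unc13a-201 lay between 0.930 and 1.77 in OMPCre cKO and between 0.753 and 2.27 in its controls. For Unc13a-208 these ranges were 0.620 to 1.48 and 0.370 to 1.51, so the groups of both long transcripts overlapped. The short Unc13a-203 and Unc13a-204 reached 5.22 and 2.11 TPM in these controls. The part of these short transcripts in the Unc13a difference was not tested.

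Other genes of the release machinery were taken from a list of 61 genes in 9 groups. Of these 58 were tested in the AP-2ε line, and 3 were higher and 4 lower at an unadjusted p under 0.05 (12.1%, against 10.2% of all genes). None had an adjusted p under 0.05 by edgeR, and the median log2 fold change was 0.03, against 0.00 over all genes. In the OMP line 57 were tested, with 2 higher and 0 lower at an unadjusted p under 0.05 (3.51%, against 3.95%), none at an adjusted one by edgeR, and a median of 0.06 against 0.00. DESeq2 called 1 listed gene in the AP-2ε line, Rab3d, and 0 in the OMP line.

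The MUN-domain relatives of the Munc13 proteins, Baiap3, Cadps and Cadps2, included 1 gene with an unadjusted p under 0.05. Cadps2, which primes dense-core vesicles, had 30.1 ± 3.29 CPM (SD, n = 3) in AP-2εCre cKO and 37.9 ± 3.52 CPM (n = 6) in its controls, with a log2 value of −0.33 (SE 0.10, adjusted p = 0.344 by edgeR). Its value in the OMP line was −0.10 (SE 0.14).

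Rab3d, Cplx2, Rims4 and Snap23 were named, like Cadps2, for an unadjusted p among the 3 lowest of the list in 1 of the lines. Rab3d, a vesicle GTPase of secretory cells, had 97.8 ± 8.87 CPM (SD, n = 3) in AP-2εCre cKO and 127 ± 11.3 CPM (n = 6) in its controls (log2 −0.37, SE 0.10, adjusted p = 0.292 by edgeR and 0.0311 by DESeq2). Cplx2, which clamps and supports SNARE fusion, had 75.6 ± 6.46 CPM and 63.0 ± 5.46 CPM (log2 0.27, SE 0.09, adjusted p = 0.359 by edgeR). Rims4, a small RIM protein of the active zone, had 1.46 ± 0.280 CPM (n = 3) in OMPCre cKO and 0.827 ± 0.289 CPM (n = 6) in the controls, with a log2 value of 0.81 (SE 0.35) and an adjusted p of 1.00 by edgeR. Snap23, a target SNARE outside neurons, had −0.15 (SE 0.07) there. By size, the log2 fold changes of all tested release genes lay between −0.72 and 0.76 in the AP-2ε line and between −0.59 and 1.66 in the OMP line, and Unc13c had 1.74 and 1.69. The value of 1.66 was that of the calcium sensor Syt2 (SE 0.92, unadjusted p = 0.103 by edgeR), which was named after its value was seen.

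The genes whose profile over the 18 libraries came closest to that of Unc13c were sought among 15837 genes with a mean of at least 1 CPM. Likeness was the root-mean-square difference of log2(CPM + 1), centred and scaled to an SD of 1 for each gene, and is given as a description without a test. The libraries share depth and group, so any gene that is higher in both cKO scores well. The nearest was Sez6l, a neuronal membrane protein of the Sez6 family, with a difference of 0.417, where the median over all genes was 1.41. Sez6l lay between 4.54 and 5.72 CPM in AP-2εCre cKO, between 3.97 and 5.56 CPM in OMPCre cKO, and between 0.739 and 1.89 CPM in the 12 controls.

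It was followed by Slc14a2, a urea transporter (0.491), Gcnt2, a glycosyltransferase that branches lactosamine chains (0.521), Srd5a1, a steroid 5α-reductase (0.549), and Nhlh2, a basic helix-loop-helix factor (0.557). Of the relatives of Unc13c, Unc13a had rank 3390 (1.23), Unc13b rank 8066 (1.42) and Unc13d rank 9898 (1.48) among the 15837 genes. Unc13a thus lay below the median difference of 1.41, and the other relatives lay near or above it.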

How the data were processed

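PolyA RNA of whole VNO at P21 was sequenced by the authors from a directional kit. The deposited files give, for each transcript, estimated counts and TPM that the authors made with Salmon 0.14.0 on mm10 (GRCm38), and DESeq2 1.22.2 was their test. The number of reads limits precision: libraries held 43385516 to 134042284 estimated counts. Here transcripts were paired with genes by GENCODE vM21 (116072 of 116248, the rest at most 0.0324% of counts), and estimated counts were summed per gene and rounded. CPM used TMM library sizes. The 3 cKO libraries of each line were compared with its 6 controls in edgeR 4.0.16 (R 4.3.3; filterByExpr, quasi-likelihood test, Benjamini-Hochberg, threshold 0.05) and in DESeq2 1.42.0 as an alternative. SE is the log2 fold change divided by the square root of F. Exact permutation tests were two-sided. Scripts used Python 3.11.15 and were tested on simulated data.

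The members and lists were chosen with earlier results of these data known. Transcripts with a mean of at least 10 counts were named, and fold changes were given for the 2 of Unc13c and for those above 0 in every library with a median of at least 20% of their gene. Of other genes, the 3 release genes with the lowest p per line and the 5 nearest profiles were named, except 1 release gene that is not reported here. Groups came from the labels. 1 library whose title names a heterozygote and whose genotype names a cKO entered no main comparison. Alternatives were other normalisations, filters, control sets, covariates, length-scaled counts and leaving out each library.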

Additional observations from a re-analysis of the deposited data

Results flagged for a closer look

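For each member and line, the 6 control libraries were searched for a library far from the rest, and 2 of these 8 sets held one. Unc13d in Smad4 flox/flox replicate 3 of the AP-2ε line was high, at 10.0 CPM, with a gap to its nearest neighbour of 0.663 of the whole range of the controls. Unc13d in Smad4 flox/flox replicate 2 of the OMP line was low, at 6.72 CPM, with a gap of 0.662 of the range. The critical value for 6 libraries is 0.625, and chance alone would mark about 1 set in 20. Without the first of these libraries the log2 fold change of Unc13d in AP-2εCre cKO was 0.05, and without the second that in OMPCre cKO was −0.13, neither with an adjusted p under 0.05 by edgeR. No difference between the effects in both lines passed the threshold for a member.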

How the results depend on the processing

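In the AP-2ε line the log2 fold change of Unc13c was 1.48 to 2.06 over 12 alternatives, and 6 kept an adjusted p under 0.05. The call was lost with length-scaled counts (1.77, adjusted p = 0.0895 by edgeR), AP-2εCre +/- controls alone (1.48, 0.119), library name style as a covariate (1.75, 0.0717), the letter style alone (1.61, 0.471) and the conflicting library among the heterozygotes (1.64, 0.0822). With the replicate number as a block it was 1.75 (0.184) with 2 genes called in place of 7. Same-numbered libraries correlated at −0.339 to 0.206 in this line and 0.0354 to 0.565 in the OMP line, and 2 and 7 of 9 such pairs were over 0.1. Each of the 9 libraries of a line was matched to both other groups, and the best match had its own number in 4 and 13 of these 18 matches. Since the labels give no shared origin and not every pair was over 0.1, the numbers were not taken as pairing the libraries, though the OMP line values are a hint that they may. The block gave 1.69 (0.0545) in the OMP line. Leaving out 1 library gave 1.66 to 1.86 in the AP-2ε line. In the OMP line Unc13c passed in 4 of 11 alternatives, over which its log2 fold change was 1.59 to 1.8. It passed with DESeq2 (1.69, 1.46e-11), a filter of 10 counts in every library (1.69, 0.0266), all 18 libraries (1.69, 0.000794) and the name style (1.69, 0.0234). The other alternatives missed the threshold, with an adjusted p of up to 0.463 by edgeR. Leaving out 1 library gave 1.54 to 1.82. DESeq2 called 316 genes in place of 7 and 46 in place of 0. It also called 1 Munc13 transcript in each line (0 by edgeR), Unc13c-202, and 1 release gene in the AP-2ε line. Release genes with an unadjusted p under 0.05 numbered 4 in each line with length-scaled counts, and 4 to 8 and 1 to 4 with 1 library left out. They were 4 without AP-2εCre cKO replicate 3, 1 without OMP line flox replicate 2, OMPCre +/- replicate 1 or 2, and 4 without OMP line flox replicate 3 or OMPCre cKO replicate 1.

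Values near 0 changed sign. In the AP-2ε line Unc13d was 0.00 with length-scaled counts, −0.01 against flox controls and −0.03 to 0.07 with 1 library left out, and −0.09 to 0.03 between controls. In the OMP line Unc13a was 0.14 against flox controls, −0.24 to 0.06 with 1 library left out and −1.16 with length-scaled counts. There Unc13b was −0.08 in the letter style and −0.08 to 0.16 with 1 library left out, and Unc13d was 0.00 in the letter style. Between OMP line controls, Unc13b was −0.05 with length-scaled counts and −0.01 to 0.08 with 1 library left out, and Unc13d −0.05 to 0.16. With 1 library left out, the interaction was −0.01 to 0.24 for Unc13b and −0.20 to 0.07 for Unc13c. Over 4 alternatives it was −1.55 to −0.27 for Unc13a and 0.09 to 0.57 for Unc13b. Unc13b in the AP-2ε line was −0.33 with length-scaled counts, and in the OMP line −0.08 to 0.24 over 11 alternatives. The level of Unc13a over Unc13d was −0.17 in the cKO libraries, and the OMP line difference in the Unc13c-202 share was −5.66 to 8.21 points. Among transcripts, Unc13a-201 was −0.11 to 0.20 and Unc13d-205 −0.07 to 0.09 in the AP-2ε line, and Unc13b-201 −0.07 to 0.04 there (0.00 with the block) and −0.05 to 0.14 in the OMP line. Unc13c-201 was 4.50 and 3.77 with the block, and 2.08 to 2.82 and 0.78 to 2.26 with 1 library left out. The cause was not tested. Unc13c had 93 to 123 counts in the AP-2ε line flox libraries, and the effect of depth on its error was not tested.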

Other observations

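The library whose labels conflict had 1689 counts of Unc13a, 5427 of Unc13b, 256 of Unc13c and 478 of Unc13d. Normalised with the other 18 libraries, these were 33.6, 108, 5.09 and 9.50 CPM. It entered no main comparison.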
